A study of Drosophila melanogaster with 30 samples.

Results

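Of 30 RNA sequencing libraries made from Pink1-deficient and control Drosophila, the 18 libraries of mutant flies that could not fly were compared. They were selected by their titles: 10 libraries of group 3 and 8 libraries of group 2. Each library was made from a pool of 5 whole male flies aged 1 day, and all 18 carried the same allele, pink1B9, a deletion that removes Pink1 function, on a w background. Group 3 held flies unable to fly from parent pairs that also gave flying offspring. Group 2 held flies unable to fly from parent pairs of which no offspring flew. The remaining libraries were 10 of flying pink1B9 flies (group 4, from the parent pairs of group 3) and 2 of pink1RV flies (group 1), a revertant line with an intact gene. The comparison therefore asked whether the flightless flies themselves differed by the kind of family they came from, at the same pink1 allele, sex, age and flight phenotype. The groups came from different parent pairs, so the rest of the genome was not held constant.

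Pink1 is a kinase that accumulates on damaged mitochondria and recruits the ubiquitin ligase parkin, which marks the organelle for removal. In flies that lack it, the mitochondria of the indirect flight muscle degenerate, the muscle fibres are lost and the animals fly poorly. The loss of flight is incompletely penetrant, since some mutants of a stock still fly. Whole-fly RNA averages muscle with gut, head, fat body and reproductive tract, and in such material fewer cells of a type and less RNA per cell cannot be told apart.

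The labels did not tie a library of group 3 to one of group 2, nor did they say how many parent pairs stood behind the libraries, so each p-value measured the spread between pools of flies. The libraries of group 3 held 11467094 to 32996700 estimated counts, with a median of 17420876, and those of group 2 held 6434252 to 24669715, with a median of 22772229. The tissue label of 3 group 3 libraries (replicates 8, 9 and 10) read human skin, whereas it read whole body for the others. The markers of whole males were present throughout: the testis tubulin betaTub85D ranged from 1350 to 2148 CPM (counts scaled to library size and TMM-adjusted) in group 3 and from 1061 to 1962 CPM in group 2, and the rhodopsin ninaE from 1258 to 2541 CPM in group 3 and from 1137 to 3211 CPM in group 2. The 24 ovary and yolk genes, of which 18 were tested, summed to 34.7 to 47.4 CPM in group 3 and 32.5 to 47.4 CPM in group 2. Of them the eggshell gene Cp38 was at no more than 0.459 CPM in group 3 and 0.043 CPM in group 2, and the yolk gene Yp1 at no more than 1.07 CPM in group 3 and 0.714 CPM in group 2, while Yp2 reached 5.04 CPM in group 3 and 1.98 CPM in group 2 and Yp3 ran from 5.35 to 7.96 CPM in group 3 and from 4.53 to 10.5 CPM in group 2. Pink1 itself averaged 58.5 ± 6.37 CPM in group 3 and 54.1 ± 6.16 CPM in group 2 (SD, n = 10 and 8), against 246 ± 35.2 CPM in the controls of group 1 (SD, n = 2). The log2 fold change of Pink1 between the non-flying groups was 0.11 (95% interval -0.11 to 0.33), and both lay well below the controls.

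No gene passed the test between group 3 and group 2. Of 13190 genes tested with edgeR's quasi-likelihood test, 0 (0%) passed a Benjamini-Hochberg adjusted p of 0.05, and the smallest adjusted p was 1. DESeq2 and limma-voom also called 0 genes, with smallest adjusted p of 0.090 and 1.00. At an unadjusted p under 0.05 edgeR counted 243 genes, or 1.84% of those tested, where 5% would lie if no gene differed. Of these, 125 were higher in group 3 (0.948%) and 118 were lower (0.895%). The share of such genes that were higher, 51.4% in the main fit, moved in both directions. It was 41.1% of 236 with DESeq2 size factors, 39.0% of 236 with upper-quartile scaling and 67.7% of 251 with limma-voom. In a fit of the 18 libraries alone it was 32.5% of 357, and leaving out single libraries of groups 3 and 2 gave 37.4% to 63.6%. The count moved with single libraries. It was 492 without group 2 replicate 8, 148 without group 2 replicate 5 and 421 without 1 library of group 4. That library was in neither compared group but entered the gene filter, the scaling and the shared estimate of the spread. Of the 421 genes, 126 were higher in group 3 and 295 lower. There was no gene (0%) for which every library of one group lay above every library of the other.

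The size of the differences that these libraries left room for was small for most genes. The 95% interval of the log2 fold change lay inside 2-fold in either direction for 11791 genes (89.4%) and inside 1.5-fold for 9561 genes (72.5%). The median log2 fold change over all genes was 0.00, and its quartiles were -0.10 and 0.09. For the genes not inside the 2-fold limit, the interval reached past it, through its width or its position. The size of difference detectable for them at this depth and number of pools was not tested.

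**Figure D1:**
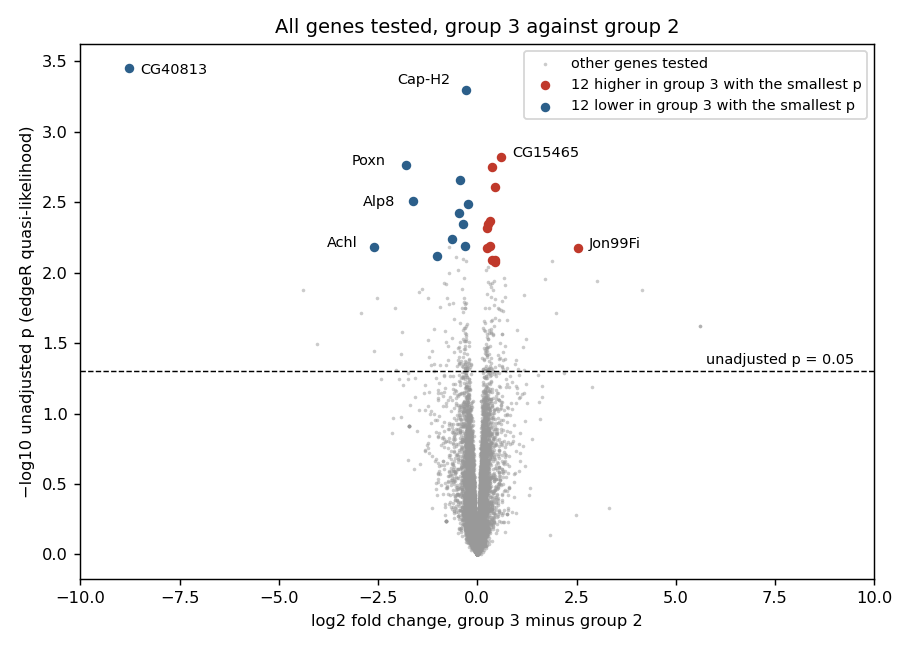
Each point is 1 of the 13190 genes tested, with the log2 fold change of group 3 minus group 2 on the x axis and −log10 of the unadjusted p of edgeR's quasi-likelihood test on the y axis. The 12 genes higher in group 3 (red) and the 12 lower (blue) with the smallest p among genes of at least 1 CPM are coloured, and none of the 13190 passed the adjusted threshold.

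Among the genes with the smallest p, those higher in group 3 mostly differed by less than 1.5-fold. CG15465 had a lowest, median and highest level of 9.87, 14.4 and 19.3 CPM in group 3, against 5.403, 8.60 and 16.2 CPM in group 2. Its log2 fold change was 0.61 (95% interval 0.25 to 0.96; unadjusted p 0.0015 and adjusted p 1 by edgeR), and the groups overlapped in their upper and lower libraries. CG15465 lies at chromosome X, 5085759 to 5254864 (BDGP6 coordinates), wholly within rg on the same strand, so the reads of these genes may not have been fully separated. CG30338, which likewise lies within CG1902 on the same strand, had 6.29, 7.56 and 9.07 CPM in group 3 against 4.33, 5.97 and 7.18 CPM in group 2. The phosphodiesterase gene dnc (dunce), which degrades cyclic AMP and is known for its role in memory, ran from 120 to 160 CPM around a median of 135 CPM in group 3. In group 2 it ran from 88.8 to 156 CPM around 106 CPM, a log2 fold change of 0.31 (0.11 to 0.52) with 1 library of group 2 among the highest of all. EloC, the elongin C subunit of ubiquitin ligases, had a log2 fold change of 0.25 (0.08 to 0.41), and spirit, a serine protease of the Toll pathway, one of 0.44 (0.17 to 0.71). The clock repressor vri (vrille) ranged from 105 to 212 CPM in group 3 and from 65.3 to 139 CPM in group 2, with a log2 fold change of 0.44 (0.12 to 0.76). The other members of this set were CG10311, CG5177, Tsp42Eh (a tetraspanin) and CG17572, with log2 fold changes of 0.28, 0.33, 0.37 and 0.44.

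Jon99Fi, a digestive serine protease of the Jonah family, had the largest fold among these 12 genes higher in group 3, and it rested on part of the libraries. Its lowest, median and highest levels were 0.092, 17.7 and 75.9 CPM in group 3 and 0.420, 2.89 and 12.7 CPM in group 2. The log2 fold change was 2.54 (0.76 to 4.32; unadjusted p 0.0067 and adjusted p 1 by edgeR). Of the 10 libraries of group 3, 6 stood above the highest of group 2 and the other 4 lay within or below its range. In the controls of group 1 the gene averaged 300 ± 123 CPM (SD, n = 2), and in the flying mutants of group 4 it averaged 7.97 ± 8.65 CPM (SD, n = 10).

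**Figure D2:**
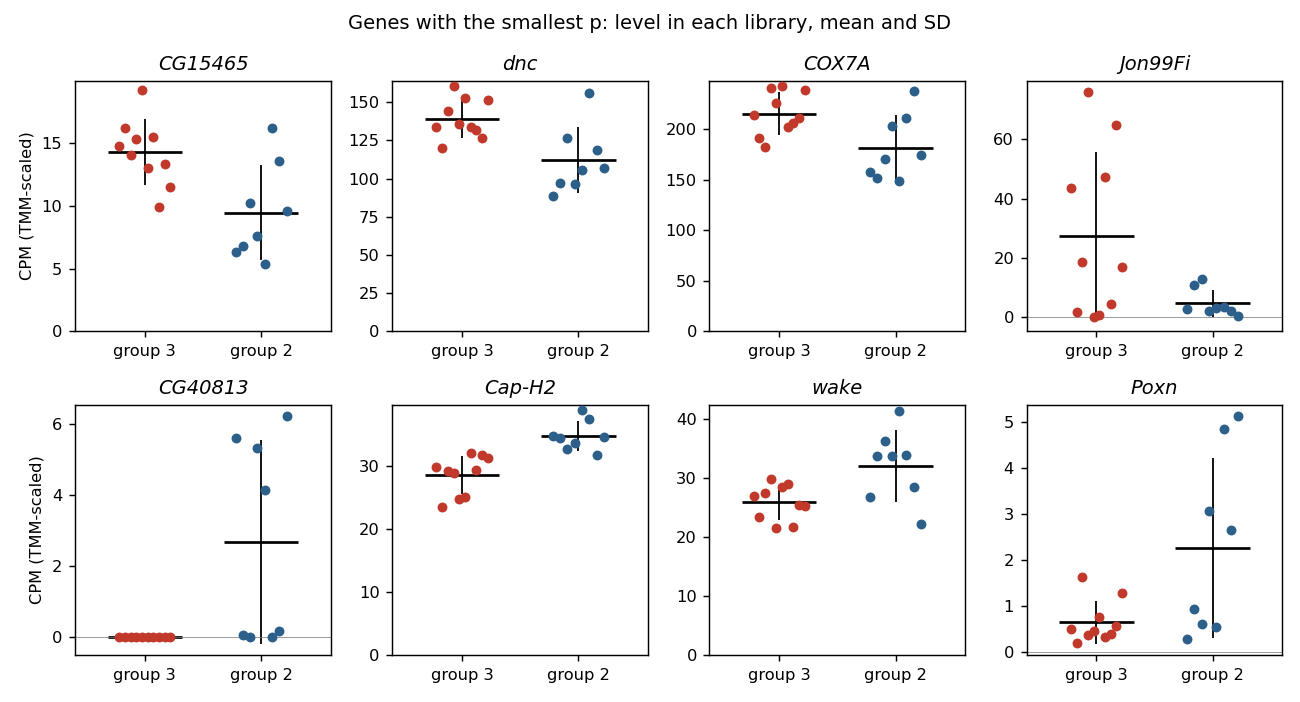
Level in each library (points), mean (horizontal bar) and SD (vertical bar) of 8 genes with small p, in CPM on the y axis, for the 10 libraries of group 3 (red) and the 8 of group 2 (blue). The groups overlap or touch in every panel, and CG40813 is at 0 in all libraries of group 3.

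The genes lower in group 3 were led by CG40813, an uncharacterised gene at chromosome X, 22143058 to 22143933. It had 0 counts in all 10 libraries of group 3. In group 2 it had 96 to 148 counts in 4 libraries, 1 count in each of 2 libraries and 0 in the other 2. Against a floor of 3 counts over the whole of group 3, its mean level was at least 174-fold lower than in group 2. Detection was compared as well, because a mean describes such a gene poorly. The gene was on (30 or more counts) in 0 of 10 libraries of group 3 and in 4 of 8 of group 2. Fisher's exact test set libraries that were on against libraries at 0 counts and left out those between. It thus compared 0 on and 10 off in group 3 with 4 on and 2 off in group 2, without the 2 libraries at 1 count. The Fisher's exact p was 0.0082 (two-sided). Its adjusted p was 0.62 over the 75 genes that were on in some libraries and at 0 in others. CG40813 was the only 1 of these with an unadjusted p under 0.05. It was on in 6 of the 10 libraries of flying flies of group 4, at 39 to 84 counts, and at 0 in both controls. The 18 genes of the region reaching 100 kb to either side, CG40813 itself included, had summed levels of 73.5 ± 10.8 CPM in group 3 and 72.8 ± 21.1 CPM in group 2 (SD, n = 10 and 8, exact permutation p 0.93, two-sided). This difference was within the spread between pools. DESeq2 gave CG40813 the smallest adjusted p of its fit, and that value, 0.090, missed the threshold too.

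Cap-H2, a subunit of condensin II that keeps chromosomes compact and homologs apart, showed the most regular difference among the lower genes. Its level ran from 23.4 to 32.1 CPM around a median of 29.2 CPM in group 3 and from 31.7 to 38.9 CPM around 34.5 CPM in group 2. Its log2 fold change was -0.28 (-0.43 to -0.14; unadjusted p 5.0e-04 and adjusted p 1 by edgeR), and the groups overlapped by the highest libraries of group 3 and the lowest of group 2. The sleep and clock-output gene wake had a log2 fold change of -0.31 (-0.52 to -0.09), at 21.5 to 29.9 CPM in group 3 and 22.2 to 41.5 CPM in group 2. For CG8079, CG8925 and RluA-2 (a pseudouridine synthase) the log2 fold changes were -0.42, -0.47 and -0.36. Flying flies of group 4, from the parent pairs of group 3, had Cap-H2 at 27.6 ± 2.36 CPM (SD, n = 10), on the side of group 3. The controls of group 1, from other parents, lay on that side too, at 26.7 ± 0.28 CPM (SD, n = 2).

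Further genes of this set had larger folds, most of them at low levels, and some leaned on 1 or a few libraries of group 2. Poxn, a paired-domain transcription factor that specifies taste bristles, had 0.190, 0.476 and 1.62 CPM (lowest, median and highest) in group 3 against 0.294, 1.80 and 5.12 CPM in group 2, with 4 libraries of group 2 above all of group 3. It lies entirely within tun on the opposite strand. Alp8, an alkaline phosphatase, reached 8.90 CPM in group 2 replicate 2 and no more than 1.07 CPM in any other library of groups 3 and 2. Without group 2 replicate 2 its log2 fold change of -1.61 was -0.22. Achl reached 188 CPM in group 2 replicate 3 and 18.9 CPM at most in group 3, and without that library its log2 fold change of -2.60 was -1.23. Ugt302K1, a UDP-glycosyltransferase, and Gr98a, of the gustatory receptor family, had log2 fold changes of -0.64 and -1.01 at means under 4 CPM. Leaving out single libraries gave -0.73 to -0.54 for Ugt302K1 and -1.26 to -0.87 for Gr98a.

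The ER genes that the study tested by crosses lay close to each other in the non-flying groups. Torsin, an ATPase of the ER and nuclear envelope, averaged 16.3 ± 2.46 CPM in group 3 and 16.6 ± 3.26 CPM in group 2 (SD, n = 10 and 8), with a log2 fold change of -0.03 (-0.33 to 0.26). KdelR, the receptor that returns ER residents from the Golgi, averaged 111 ± 10.5 CPM in group 3 and 107 ± 6.30 CPM in group 2 (SD, n = 10 and 8), with a log2 fold change of 0.06 (-0.08 to 0.19). The log2 fold changes of wbl (windbeutel, an ER chaperone) and zda (zonda) were 0.10 (-0.21 to 0.42) and 0.03 (-0.11 to 0.17). All 4 intervals lay inside 1.5-fold in either direction. Of 44 genes of ER protein entry, folding and the unfolded protein response, 0 were at an unadjusted p under 0.05, beside 1.84% of all genes tested. Their median log2 fold change was 0.01, with Xbp1 at -0.05, the chaperone Hsc70-3 (BiP) at -0.22 and the signal peptidase subunit Spase22-23 at 0.38.

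For the Pink1 pathway the intervals were narrow as well. Of 19 genes of the pathway and of mitochondrial dynamics, 0 were at an unadjusted p under 0.05 in either direction, beside 1.84% of all genes tested. Their median log2 fold change was 0.06 beside 0.00 over all genes. All 19 had an interval inside 2-fold, as did 89.4% of all genes tested. The ligase gene park averaged 63.9 ± 11.8 CPM in group 3 and 59.7 ± 11.2 CPM in group 2 (SD, n = 10 and 8), a log2 fold change of 0.10 (-0.15 to 0.35). The fusion genes Marf (mitofusin) and Opa1, acting on the outer and the inner membrane, had log2 fold changes of -0.04 (-0.26 to 0.19) and -0.11 (-0.28 to 0.05). Usp30, a deubiquitinase that opposes parkin, had 0.14 (-0.01 to 0.29), and dj-1beta, a DJ-1 homolog that protects against oxidative stress, had 0.21 (-0.02 to 0.43). Of 25 core autophagy genes, 0 were at an unadjusted p under 0.05, with a median of 0.00, and the proteasome likewise had 0 of 48, with a median of -0.04. With 1.84% of all genes tested at that level, a count of 0 is unremarkable in lists of these sizes.

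In the respiratory chain, log2 fold changes of most mitochondrially encoded genes were below 0 and those of most nuclear subunits above 0, none past the adjusted threshold. Among all genes tested, 0.895% were lower and 0.948% higher in group 3 at an unadjusted p under 0.05. Of 12 protein genes of the mitochondrial genome that were tested, 6 were lower at that level and 0 were higher, with a median log2 fold change of -0.47. They were mt:ND1, mt:ND4, mt:CoI, mt:CoII, mt:Cyt-b and mt:ATPase6, at -0.54, -0.79, -0.49, -0.28, -0.58 and -0.62. The summed level of all 13 protein genes of the mitochondrial genome, tested or not, ranged from 9301 to 23239 CPM around a median of 16000.4 CPM in group 3. In group 2 it ranged from 12082 to 36291 CPM around 20811 CPM. The ranges overlapped between 12082 and 23239 CPM. Without group 2 replicate 3 the median was -0.27 and 2 genes were at an unadjusted p under 0.05, while without group 2 replicate 8 the median was -0.57 and 8 genes were.

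Of the nuclear subunits, 39 of 40 for complex I and 35 of 36 for complexes II to V had a log2 fold change above 0, with medians of 0.18 and 0.20. At an unadjusted p under 0.05, 2 of each list were higher, beside 0.948% of all genes tested. Leaving out single libraries gave 0 (without group 2 replicate 1) to 13 (without group 2 replicate 7) such genes of complex I and 1 to 5 of complexes II to V at the same libraries, and both medians were 0.10 without group 3 replicate 5. COX7A, a subunit of cytochrome c oxidase, had the smallest p of them, at 182, 212 and 243 CPM (lowest, median and highest) in group 3 and 148, 172 and 238 CPM in group 2, a log2 fold change of 0.25 (0.07 to 0.42). ND-B18 and ND-B17 of complex I had 0.33 (0.03 to 0.62) and 0.24 (0.02 to 0.46), and COX8 had 0.30 (0.00 to 0.60). Mitochondrial ribosomal protein genes were above 0 in 67 of 73 cases, with a median of 0.10 and 3 at an unadjusted p under 0.05 (mRpL49, mRpL43 and mRpS21, at 0.27, 0.26 and 0.28). Cytosolic ribosomal protein genes were above 0 in 90 of 92 cases, with a median of 0.08 and 0 at an unadjusted p under 0.05. Without group 2 replicate 7 there were 6 and 4 such genes of these ribosomal lists. Genes of 1 list share the libraries and move together, so these counts of members above 0 are not independent of each other.

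A gradient with transcript length ran through the same comparison and was measured over all genes. With genes divided into 5 bins of equal size by their longest annotated transcript, the median log2 fold change was 0.06 in the bin of the shortest transcripts and 0.04, 0.01, -0.02 and -0.09 in the following ones. The share of genes above 0 was 68.8%, 65.0%, 56.0%, 42.9% and 20.2% in that order. These medians were small beside the spread between pools. Within groups, the median deviation of a library had an SD of 0.185 in the shortest bin and 0.163 in the longest. Leaving out single libraries gave medians of 0.013 to 0.120 in the shortest bin and -0.137 to -0.048 in the longest. Whether the gradient differed between the groups was not tested. The nuclear complex I genes and the cytosolic and mitochondrial ribosomal protein genes had short transcripts, with medians of 813, 871 and 783 bases against 1778 bases over all genes with a length. The mitochondrially encoded genes were short too, at a median of 864 bases, and lay on the other side of 0. The part of transcript length in the list medians was not tested.

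**Figure D3:**
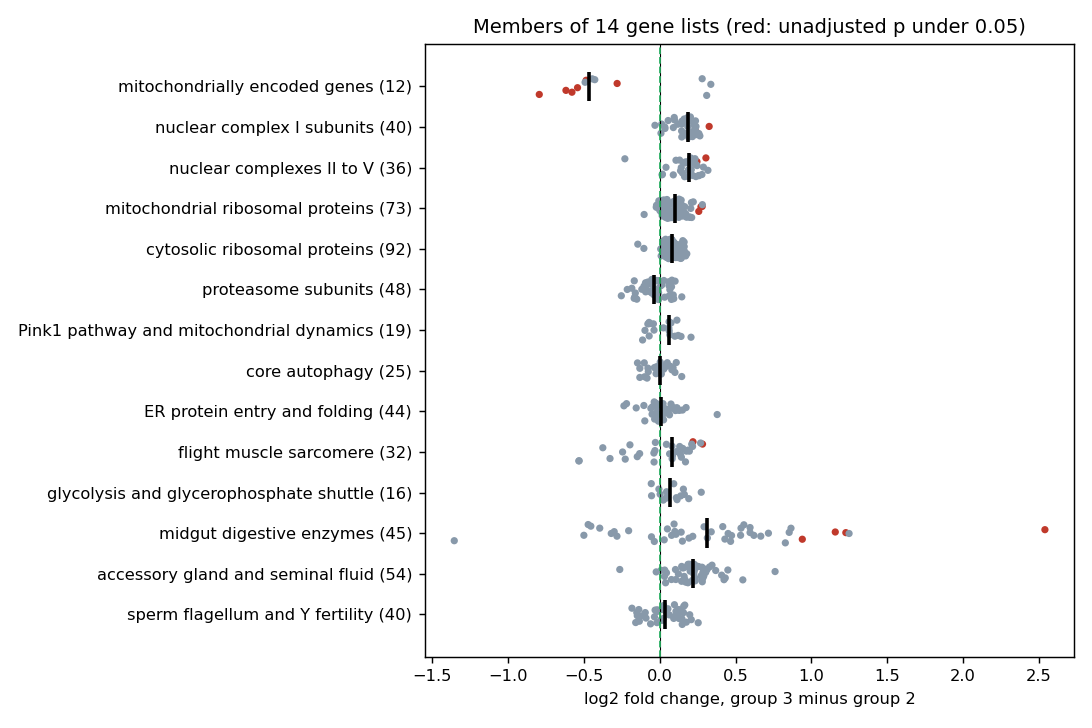
Log2 fold change of group 3 minus group 2 (x axis) for each tested member of 14 gene lists (y axis, number of members in brackets), with the median of the list as a black bar and that of all genes as a dashed line at 0.00. Members at an unadjusted p under 0.05 are red; the mitochondrially encoded genes have a median of -0.47 and the nuclear complex I subunits one of 0.18.

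For sarcomere genes, flight muscle being the tissue of the phenotype, group medians lay close together while the pools of group 2 varied more. The levels came from whole flies, in which flight muscle was not measured apart from other muscle. Of 32 sarcomere genes, 2 were higher in group 3 at an unadjusted p under 0.05, beside 0.948% of all genes tested, and the median log2 fold change of the list was 0.08. These were Argk1 (arginine kinase, which buffers ATP) at 0.28 (0.00 to 0.56) and Mf (myofilin, of the thick filament) at 0.22 (0.00 to 0.44), while the elastic protein gene sls had -0.23 (-0.48 to 0.03). The summed level of the 32 genes ran from 33223 to 50373 CPM around 37526 CPM in group 3 and from 19598 to 63175 CPM around 37756 CPM in group 2. Group 2 thus held both the lowest libraries (replicates 1 and 8) and the highest (replicate 3) at about the same median. Act88F, the actin of the indirect flight muscle, ranged from 461 to 1565 CPM in group 3 and from 155 to 2723 CPM in group 2, and the myosin gene Mhc from 3735 to 6633 CPM in group 3 and from 1860 to 11106 CPM in group 2. The median SD of the 32 genes on the log2 scale was 0.26 in group 3 and 0.59 in group 2. Without group 2 replicate 1 the median log2 fold change of the list was -0.03 and 0 members were at an unadjusted p under 0.05, and without group 2 replicate 3 the median was 0.20. Over all single libraries left out, the number of such members ran from 0 to 3.

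The smaller spread of group 3 was seen over most genes, although it leaned on particular libraries. Of 12336 genes with a mean of at least 1 CPM, 9147 (74.1%) had the smaller SD of log2(CPM + 1) in group 3, with a median SD of 0.23 in group 3 and 0.29 in group 2. Without group 2 replicate 3 the share was 61.4%, and without group 2 replicates 3 and 8, a choice made after seeing the data, it was 52.3%. Genes of a library vary together, so the share is a description of the libraries. The distance of a library from the rest of its own group (median absolute difference over genes, on the log2 scale) averaged 0.183 ± 0.061 in group 3 and 0.227 ± 0.085 in group 2 (SD, n = 10 and 8), and this difference was within the spread between pools (exact permutation p 0.22, two-sided).

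**Figure D4:**
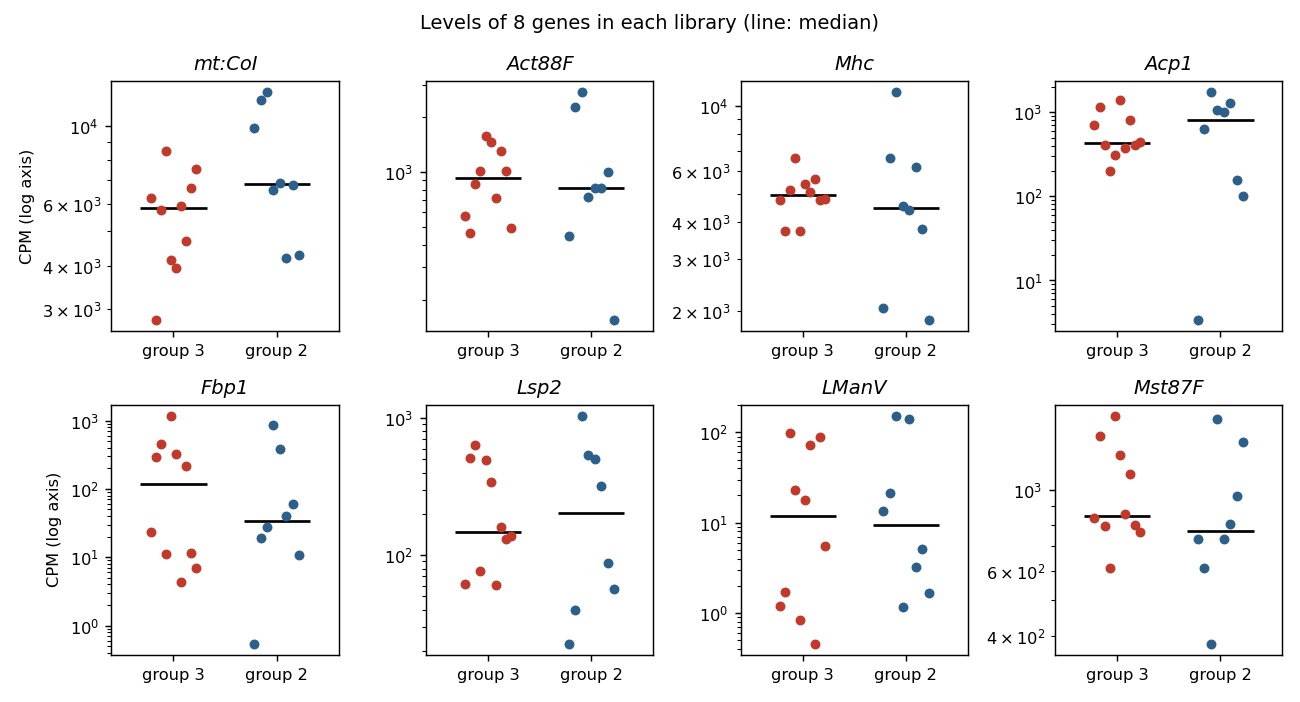
Level of 8 genes in each library in CPM (y axis, log scale; bar, median) for group 3 (red) and group 2 (blue). The range of Act88F was 461 to 1565 CPM in group 3 and 155 to 2723 CPM in group 2, whereas Fbp1 varies widely in both (4.41 to 1160.3 CPM in group 3 and 0.546 to 873 CPM in group 2).

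On the principal components the groups differed by less than the spread between pools. Over the 2000 most variable genes, the first component held 37.4% of the variance and the second 16.4%. Scores on the first averaged 1.52 ± 23.1 in group 3 and -1.90 ± 33.5 in group 2 (SD, n = 10 and 8; exact permutation p 0.80, adjusted p 0.98 over 2 components, two-sided). On the second they averaged 0.09 ± 14.1 in group 3 and -0.12 ± 23.3 in group 2 (SD, n = 10 and 8; exact permutation p 0.98, adjusted p 0.98). The first component ran from long transcripts, among them the adhesion genes shg and Nrg, with a median of 4564 bases over its 100 leading genes, to short ones such as Mst84Da of the sperm tail, with a median of 610 bases. The second had cuticle genes at its high end, 10 of the 100 leading genes, including Cpr97Ea. Group 2 replicate 3 lay lowest on the first component, at -57.9, and highest on the second, at 27.8, and group 2 replicate 1 lay lowest on the second, at -39.5.

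**Figure D5:**
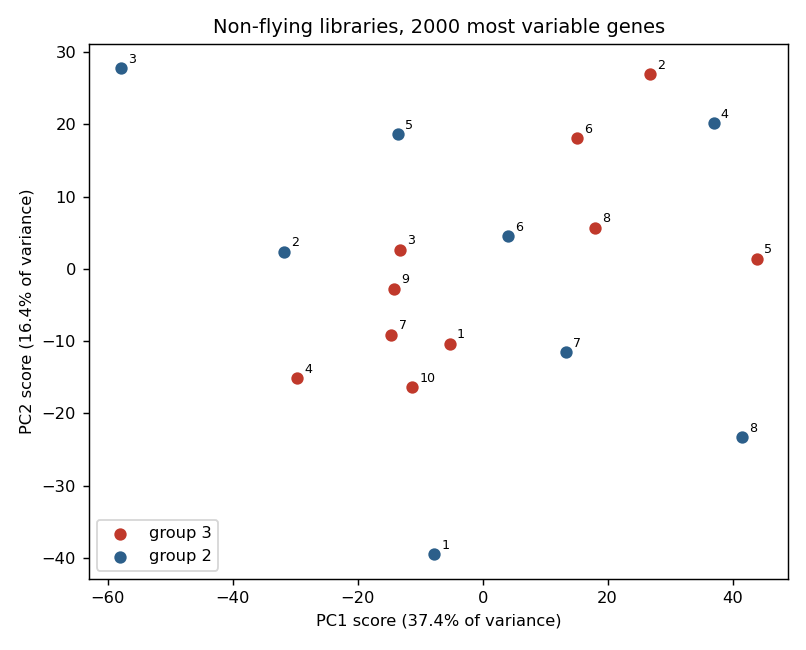
Scores of the 18 non-flying libraries on the first component (x axis, 37.4% of the variance) and the second (y axis, 16.4%), computed without the group labels, with replicate numbers beside the points. The 10 libraries of group 3 (red) lie among the 8 of group 2 (blue), whose replicates 1 and 3 mark the ends of the second component.

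The genes that varied most between pools did so within both groups. Fbp1, the receptor by which the larval fat body takes up storage protein, had 4.41, 119 and 1160.3 CPM (lowest, median and highest) in group 3 and 0.546, 33.8 and 873 CPM in group 2. Fbp2, of the same tissue, ranged from 1.58 to 351 CPM in group 3 and from 0.588 to 411 CPM in group 2. The storage protein gene Lsp1gamma ranged from 15.04 to 596 CPM in group 3 and from 0.630 to 764 CPM in group 2. Fbp1, Fbp2 and Lsp1gamma were each highest in replicate 5 of group 3 and in replicate 4 of group 2. LManV, a lysosomal alpha-mannosidase, ran from 0.458 to 97.6 CPM in group 3 and from 1.17 to 151 CPM in group 2, and HSPBAP1 from 3.00 to 280.1 CPM in group 3 and from 1.87 to 268 CPM in group 2. CG46429, which lies within Sesn on the same strand, was at 0 in at least 1 library of each group and reached 59.98 CPM in group 3 and 93.2 CPM in group 2. Their SDs on the log2 scale lay between 2.08 and 2.86 in group 3 and between 2.41 and 2.86 in group 2. Cuticle genes of the young adult varied as well: Acp1 had 200.4, 429 and 1399 CPM in group 3 and 3.40, 812 and 1719 CPM in group 2, with the lowest value in group 2 replicate 1 and the highest in group 2 replicate 3. Among genes on in some libraries and off in others, Ir75d was at 0 in 2 libraries of group 2 and at 3.56 to 48.3 CPM in all of group 3, and it overlaps COX6AL2 on the same strand.

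Most members of the gut and seminal fluid lists had log2 fold changes above 0, and none passed the test. Over all genes tested, 0.948% were higher and 0.895% lower in group 3 at an unadjusted p under 0.05. Of 45 midgut digestive enzyme genes, 4 were higher at that level and 0 were lower, with a median log2 fold change of 0.31. Leaving out single libraries gave 1 (without group 2 replicate 1) to 10 (without group 3 replicate 2) such genes, and medians of 0.16 (without group 2 replicate 8) to 0.56 (without group 2 replicate 3). Besides Jon99Fi they included the Jonah proteases Jon25Bii and Jon25Bi at 1.23 (0.13 to 2.32) and 1.16 (0.10 to 2.22). Jon25Bi had 47.7, 168 and 258 CPM (lowest, median and highest) in group 3 and 24.1, 56.9 and 161 CPM in group 2, so the median library of group 3 stood above all of group 2 while the ranges overlapped. The summed level of the list was 2138 to 7450 CPM in group 3 and 1704 to 5784 CPM in group 2. Members of this list share the libraries, so they are not independent of each other. Of 31 antimicrobial peptide and Bomanin genes, 3 were higher at an unadjusted p under 0.05, and the median was 0.04. They were DptA at 1.71 (0.42 to 3.00), AttC at 1.17 (0.25 to 2.09) and AttD at 1.98 (0.34 to 3.62), all at means under 10 CPM. AttD rested on 37 counts over all of group 3 and 8 over all of group 2. DptA reached 10.7 CPM in the highest library of group 3 and 2.06 CPM in that of group 2, with medians of 1.80 CPM in group 3 and 1.02 CPM in group 2. The stress peptide genes TotA and TotC had log2 fold changes of 0.70 (-0.40 to 1.81) and 1.14 (-0.52 to 2.81), and Hsp70Aa, the inducible chaperone, 1.63 (-0.10 to 3.37) with 194 CPM in group 3 replicate 2.

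Summed over all 56 genes of the accessory gland and seminal fluid list, the level was 7997 to 14599 CPM in group 3 and 5946 to 13302 CPM in group 2. The 54 of these genes that were tested had a median log2 fold change of 0.22, with 52 above 0 and 0 at an unadjusted p under 0.05. Without group 2 replicate 4, 8 of them were at an unadjusted p under 0.05 and the median was 0.32. Acp29AB, one of them, had 0.33 (-0.03 to 0.68). The 40 genes of the sperm flagellum and of Y fertility had a median of 0.03 with 0 at an unadjusted p under 0.05. The list counts that follow stand beside 0.948% of all genes tested that were higher in group 3 at an unadjusted p under 0.05. Of 35 glutathione transferase genes, 2 were higher at that level, GstE10 at 0.44 (0.09 to 0.78) and GstD10 at 0.54 (0.10 to 0.98). Of 15 antioxidant and methionine repair genes 2 were higher, the mitochondrial peroxiredoxin Prx3 at 0.16 (0.01 to 0.31) and the superoxide dismutase Sod1 at 0.18 (0.00 to 0.37). The rhodopsin Rh6 at 0.54 (0.02 to 1.07) was the only photoreceptor gene of 26, and Obp56d at 0.57 (0.05 to 1.09) the only odorant-binding protein gene of 43, at that level. Of 76 cuticle protein genes 2 were higher, Cpr78Ca at 1.88 (0.52 to 3.24) with 50 counts over all of group 3 and 10 over all of group 2, and Cpr57A at 0.57 (0.03 to 1.12). Leaving out single libraries gave 2 to 6 such genes among the antimicrobial peptides, 2 to 4 among the glutathione transferases, 0 to 3 among the antioxidant genes, 0 to 2 among the photoreceptor genes, 0 to 4 among the odorant-binding proteins and 1 to 5 among the cuticle proteins. For 16 genes of glycolysis, 21 heat shock protein genes, 16 genes of the ATF4 and one-carbon response and 14 genes of dopamine synthesis and transport, 0 members were at an unadjusted p under 0.05, with medians of 0.07, -0.06, 0.03 and -0.07. For 5 Turandot stress peptide genes, 8 larval serum and fat body storage genes and 18 ovary and yolk genes 0 were at that level either, with medians of 0.53, 0.24 and 0.15. Of 13 clock genes, vri alone was, and their median was 0.07. The 10 housekeeping genes had a median of 0.02, and the 10 ribosomal RNA genes and pseudogenes one of -0.23, which was 0.30 without group 2 replicate 8.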

How the data were processed

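RNA of pooled whole flies was sequenced, and the authors filtered reads with fastp 0.23.4, pseudoaligned them with kallisto to BDGP6.46 transcripts and summed them per gene with tximport 1.26.1. The deposited values were estimated counts per gene, given as whole numbers; the sources used here do not say whether they were length-scaled. The methods name kallisto 0.44.0, while the submitters' processing notes name kallisto 0.45.0 and GRCh38; the gene symbols were those of the fly.

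The table held 14326 genes. Genes were kept with filterByExpr, scaled by TMM and tested with edgeR 4.0.16 (R 4.3.3), robust quasi-likelihood F-test, in 1 model over all 30 libraries with group as the only term; the contrast was group 3 minus group 2, adjusted by Benjamini-Hochberg over 13190 genes. Intervals are 95% intervals from the standard error of this fit. CPM are TMM-scaled. Principal components used log2(CPM + 1) of 2000 genes scaled to unit variance. Group means were compared by exact permutation over 43758 splits. DESeq2 1.42.0, limma 3.58.1, other scalings and filters, subsets of libraries and fits without each library in turn were alternatives. The code was tested on simulated counts. No 2 libraries were identical.

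Genes were named by rule: the 12 higher and 12 lower with the smallest p at a mean of at least 1 CPM, the genes crossed in the study, up to 3 members per list with the smallest p and central members, the 6 with the largest SD at a mean of at least 5 CPM, and those on in some libraries only. A gene that the rule names is not reported here. Markers such as Yp2, Yp3, Act88F, Mhc, Acp1, ninaE and betaTub85D, and mt:ND4, mt:CoI and mt:Cyt-b, were added after values were seen. The groups, the 29 gene lists and the tests were chosen with earlier results of these data known. Positions and transcript lengths came from the BDGP6.54 annotation, and no sequence was printed. Flight assays were not analysed here. No separate counting intervals were computed, and the intervals given come from the fit across pools.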

Additional observations from a re-analysis of the deposited data

Results flagged for a closer look

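Among 94 genes and 5 library measures checked in each group (198 checks), 13 extreme libraries stood apart from the rest of their group by a gap large for the range of that group; about 1 in 20 would do so by chance. In group 3, replicate 2 was lowest for KdelR (87.3 CPM, next 104 CPM), wbl (16.6 CPM, next 24.4 CPM) and Argk1 (1065 CPM, next 1616 CPM). Group 3 replicate 6 was highest for the proteasome genes Rpt5 (156 CPM, next 110 CPM) and Rpn9 (207 CPM, next 135 CPM) and for the yolk genes Yp1 (1.07 CPM, next 0.459 CPM) and Yp2 (5.04 CPM, next 0.952 CPM). Group 3 replicate 5 was highest for Pink1 (74.0 CPM, next 61.0 CPM), and group 3 replicate 9, labelled human skin, for Gr98a (4.16 CPM, next 1.84 CPM). In group 2, replicate 2 was highest for Alp8 (8.90 CPM, next 1.07 CPM), replicate 3 lowest for Usp30 (99.1 CPM, next 134 CPM) and replicate 1 lowest for the thick-filament gene Mf (838 CPM, next 1135 CPM). Group 2 replicate 8 had 2.74% of its counts on ribosomal RNA and its pseudogenes, against 0.792% in the next library of its group.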

How the results depend on the processing

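Under all alternatives run, 0 genes passed the adjusted threshold between group 3 and group 2, and no gene detected in some libraries only passed Fisher's exact test (1 or 2 genes at an unadjusted p under 0.05). The count at an unadjusted p under 0.05 was 243; it was 421 without 1 flying library of group 4, and 148 to 492 when each library of groups 3 and 2 was left out in turn. Without group 2 replicates 3 and 8, an alternative chosen after seeing the data, it was 318. Without all libraries labelled human skin, those of group 4 included, it was 182. The difference in mean score (group 3 minus group 2) was -1.65 on the first component with 500 genes and -2.97 on the second with 5000 genes, and leaving out single libraries gave -3.49 to 9.40 on the first and -7.51 to 6.30 on the second, so neither had a stable sign. Near-zero log2 fold changes turned sign when single libraries were left out: Torsin ran from -0.078 to 0.034 (0.036 without group 2 replicates 3 and 8), Marf from -0.104 to 0.017 and Xbp1 from -0.113 to 0.0087. The cause was not tested. The median of the storage list, 0.24, ran from -0.16 to 1.06 when single libraries were left out. No paired analysis was possible because no label links a library of group 3 with one of group 2. Genes with few counts, such as AttD with 37 counts in group 3 and 8 in group 2, are limited by depth as well as by the number of pools.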

Other observations

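The library of group 3 with the highest proteasome levels, replicate 6, had a summed level of 6913 CPM over the 48 subunit genes, against 5081 to 5882 CPM in the other 9 libraries of group 3 and 4942 to 6197 CPM in group 2. Group 3 replicate 2 combined the lowest summed level of the mitochondrially encoded genes in either group (9301 CPM) with the lowest Act88F of group 3 (461 CPM) and the highest Hsp70Aa of either group (194 CPM). Group 2 replicate 3 combined the highest summed levels of the mitochondrially encoded genes (36291 CPM) and of the sarcomere genes (63175 CPM) in either group with the lowest Usp30 (99.1 CPM).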
